A study of Drosophila melanogaster with 20 samples.

Results

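The overexpression of Wnt4 in Drosophila embryos was followed with and without raised otk-1. The members are 4 libraries that carry UAS-wnt-4, set against 4 matched libraries that lack it, so 8 of the 20 libraries of the series were compared. They were chosen by genotype alone. The UAS-wnt-4 embryos overexpress wnt-4, and their matched control is the group labelled WT. The UAS-otk-1 UAS-wnt-4 embryos overexpress otk-1 and wnt-4, and their matched control is UAS-otk-1, which overexpresses otk-1 from a transgene with an HA tag. The transgenes were driven by a recombined chromosome with a maternal alpha-Tubulin GAL4-VP16 and a daughterless GAL4, a pair that acts from the egg onward in nearly all cells of the embryo. Which transgenes, if any, the WT embryos carry is not stated. Raised Wnt4 and other differences that come with the UAS-wnt-4 stock cannot be told apart here, in either background. Each group has 2 libraries (n = 2), from embryos laid over 24 h at 25 °C and so of mixed ages, and nothing says that they are separate collections, so p-values here reflect only how these libraries vary, which may be technical. The remaining 12 libraries express hairpins against wnt-4, otk-1 or otk-2, alone or in pairs. They entered the scaling and the filter on low counts, placed a gene's level in the series, and joined the fit in 1 alternative.

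Wnt proteins are secreted ligands that bind Frizzled receptors together with co-receptors. In the canonical branch, wingless signals through Frizzled and arrow to keep Armadillo (beta-catenin) stable, and in the embryonic epidermis this sets the alternation of naked cuticle and denticles. Wnt4 lies beside wg in the genome and is known in the embryo for activity that opposes it. Off-track (otk-1, named otk in the annotation) and its neighbour otk2 encode transmembrane proteins of the PTK7 family, pseudokinases that act as Wnt co-receptors.

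Libraries held 34443233 to 38807601 counts. Levels are given as CPM, counts divided by library size after scaling over all 20 libraries, and as TPM, which corrects for gene length, where genes are compared with each other. Changes are log2 fold changes ± SE of edgeR, and a gene passed where its p, adjusted over the 11154 genes tested, was under 0.1. The 8 libraries differed in their levels of late and early embryonic genes. A stage score, the mean log2 CPM of 59 late genes (12 of them muscle and neuron genes, the others cuticle proteins) minus that of 22 early ones, was -2.01 and -3.07 in UAS-wnt-4 against -0.60 and -2.07 in WT. It was -3.02 and -3.24 in UAS-otk-1 UAS-wnt-4 against -3.62 and -3.03 in UAS-otk-1. WT replicate 1 had the highest score of the 8, and the scores of UAS-wnt-4 and WT overlapped. The summed level of 6 Hsp70 genes also set libraries apart. It was 45.5 and 1270 CPM in UAS-wnt-4 against 67.7 and 1170 CPM in WT, and 53.1 and 86.9 CPM in UAS-otk-1 UAS-wnt-4 against 44.5 and 1550 CPM in UAS-otk-1, so that 1 library of 3 groups was high. The ages of the embryos in a library are not stated. The part of the stage score and of the heat shock genes in the results was not tested beyond the values given beside them, and in whole embryos fewer cells of a type and less RNA per cell cannot be told apart. Of 20 ovary and yolk genes 3 were measured well enough to test, with a sum of 1.67 to 2.15 CPM with UAS-wnt-4 and 1.79 to 5.22 CPM without it, and Cp19 at 0 in all 8 libraries.

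Wnt4 itself (FBgn0010453, chromosome 2L, 7255419 to 7277171 of dm6, minus strand) was strongly raised in all 4 libraries. It had 3050 and 2460 CPM in UAS-wnt-4 against 126 and 107 CPM in WT. In the otk-1 background it had 2840 and 2600 CPM in UAS-otk-1 UAS-wnt-4 against 83.9 and 81.0 CPM in UAS-otk-1. The groups were far apart in both backgrounds, and the levels with UAS-wnt-4 overlapped between them. With the presence of UAS-otk-1 as a block, the change was 4.81 ± 0.14, or 28.1-fold (adjusted p = 1.61e-06), with 5.05 ± 0.17 in UAS-otk-1 embryos and 4.58 ± 0.16 without UAS-otk-1. The difference between these changes was 0.47 ± 0.20 (adjusted p = 0.913). In TPM, Wnt4 was at 1030 and 906 in UAS-wnt-4 against 45 and 38.8 in WT, and at 1000 and 871 in UAS-otk-1 UAS-wnt-4 against 30.6 and 31.6 in UAS-otk-1. By this measure it ranked 121 and 129 of the tested genes in UAS-wnt-4 against 2665 and 3316 in WT, and 122 and 133 in UAS-otk-1 UAS-wnt-4 against 3982 and 4074 in UAS-otk-1. Wnt4 overlaps CG31909, and no source used here says if reads were counted by strand. For the same reason the values of other genes with an overlapping neighbour are uncertain, among those named below CG3339 (asRNA:CR44287), CG6738 (Cow), Ugt49B1 (CG44245), Muc96D (Fur1), Acbp5 (Fhos), CG3106 (Ptpmeg2), cry (vib), lncRNA:CR34335 (DIP-alpha), Grik (TotX), w (kirre), Ada1-1 (CG18787) and Cyp9f3 (Sol1), as well as otk (lncRNA:CR44306).

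The co-receptor genes did not pass the test. In the otk-1 background, otk had 1550 and 1470 CPM in UAS-otk-1 UAS-wnt-4 against 2190 and 1980 CPM in UAS-otk-1. The groups did not overlap, with a change of -0.46 ± 0.12 (adjusted p = 0.445). Without UAS-otk-1, otk had 186 and 168 CPM in UAS-wnt-4 against 199 and 178 CPM in WT. Most otk counts in the otk-1 background thus came with UAS-otk-1, and the counts do not part transgene from endogenous transcripts. The paralog otk2 had 78.5 and 81.6 CPM in UAS-otk-1 UAS-wnt-4 against 51.7 and 50.1 CPM in UAS-otk-1, a change of 0.66 ± 0.13 (adjusted p = 0.216). It had 76.9 and 67.4 CPM in UAS-wnt-4 against 67.5 and 61.6 CPM in WT, which overlapped. Across both backgrounds otk2 gave 0.42 ± 0.12 (adjusted p = 0.405).

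**Figure D1:**
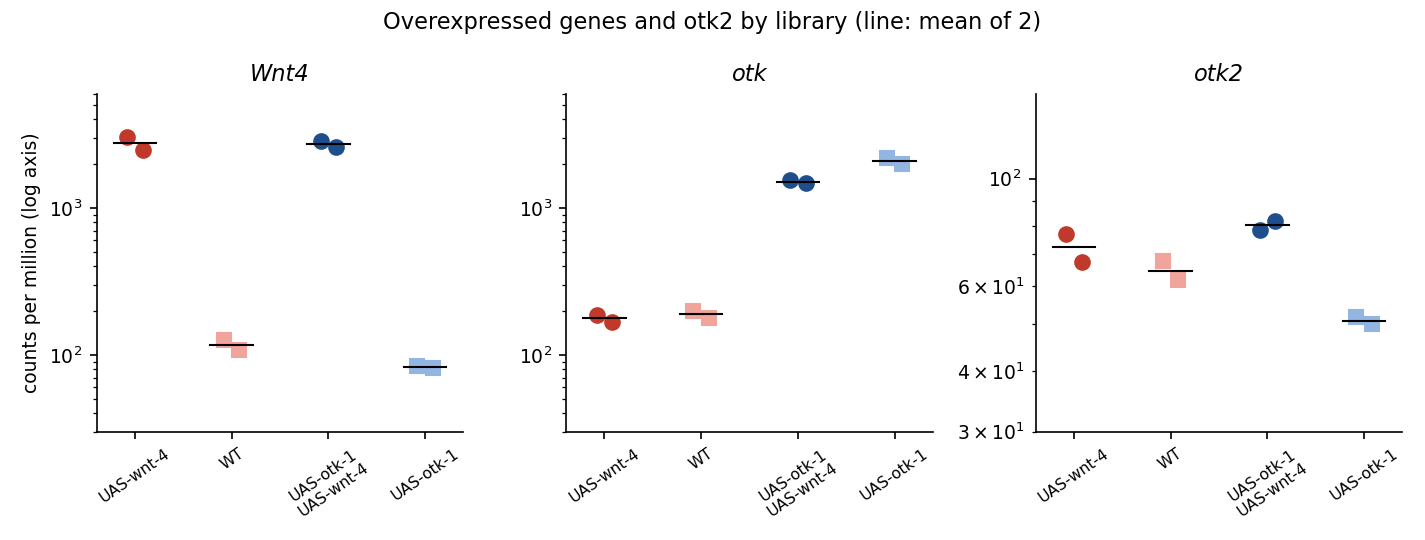
Levels in CPM (log axis) of Wnt4, otk and otk2 in the 8 libraries, 2 points per group with their mean as a line. Wnt4 lies at 2460 to 3050 CPM in the 4 libraries with UAS-wnt-4 and at 81.0 to 126 CPM in the 4 without, while otk in the otk-1 background is lower with UAS-wnt-4 (1550 and 1470 against 2190 and 1980 CPM).

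With UAS-otk-1 as a block, 25 of 11154 genes (0.224%) passed, 11 higher and 14 lower in embryos with UAS-wnt-4. They were 22 protein coding genes and 3 pseudogenes. In 20 of the 25, the libraries with and without UAS-wnt-4 did not overlap within either background and moved the same way, against 7.67% of all genes tested. The block test chose the 25 on these same libraries, so a higher share follows from the choice and is no further support. At an unadjusted p under 0.05, 564 genes were higher (5.06%) and 388 lower (3.48%), DESeq2 called 67 higher (0.601%) and 127 lower (1.14%), and a fit that added the stage score had 879 higher (7.88%) and 893 lower (8.01%). The count fell to 13 without WT replicate 2, 15 without UAS-wnt-4 replicate 1, 14 and 13 without UAS-otk-1 replicate 1 or 2 and 12 without UAS-otk-1 UAS-wnt-4 replicate 1. Genes that passed in each of the 8 fits that left out a library numbered 11, namely Wnt4, CG32305, CG32301, CG3339, CG8539, GILT3, CR32011, Spn28Da, LManV, CR32010 and CG3106.

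Of the rises other than Wnt4, several were genes near 0 in the matched libraries. CG32305 had 4.46 and 3.75 CPM in UAS-wnt-4 and 5.36 and 6.44 CPM in UAS-otk-1 UAS-wnt-4, with 695 reads in these 4 libraries against 0 in the 4 without UAS-wnt-4. Taking 3 counts over those 4 libraries as the floor, this is at least 233-fold higher (adjusted p = 0.00161). Its neighbour CG32301, which lies 21 bases from it on the same strand of chromosome 3L (CG32301 at 2244478 to 2248614 and CG32305 at 2248635 to 2252729), had 643 reads with UAS-wnt-4 against 2 without, a ratio of 324 (95% interval 89.3 to 2680, for counting error only). The pair thus appeared together, and in the 12 hairpin libraries CG32305 reached at most 0.0961 CPM and CG32301 at most 0.0672 CPM. Both carry AC among their older names in RefSeq.

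CG3339, listed there under the older name DHC5 (dynein heavy chain), had 11.7 and 13.8 CPM in UAS-wnt-4 against 0.139 and 0.315 CPM in WT. In the otk-1 background it had 15.5 and 13.0 CPM in UAS-otk-1 UAS-wnt-4 against 0.447 and 0.322 CPM in UAS-otk-1. The groups lay far apart in each background, with a change of 5.48 ± 0.27 or 44.7-fold (adjusted p = 5.78e-05). CG8539 had 3.20 and 2.79 CPM in UAS-wnt-4 against 0.167 and 0.0572 CPM in WT, and 2.05 and 2.21 CPM in UAS-otk-1 UAS-wnt-4 against 0.0298 and 0.175 CPM in UAS-otk-1, a change of 4.53 ± 0.44. With a mean of 45.8 counts it was below the minimum of 50 for genes to be named, and it was named after its values were seen, as were mthl6, LManIII, CG9682, CR43105, Ir64a and SdicA. Next to it on chromosome 3L lies mthl6, a member of the methuselah-like receptor family. This gene had 5.63 and 5.18 CPM in UAS-wnt-4 against 0.0833 and 0 CPM in WT, and it was at 0 in UAS-otk-1 UAS-wnt-4 and UAS-otk-1. It passed in the block fit (adjusted p = 0.0982) although the rise was seen in a single background, and it passed in 1 of the 8 fits that left out a library.

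Spn28Da encodes a serpin, a serine protease inhibitor. It had 212 and 125 CPM in UAS-wnt-4 against 28.4 and 30.4 CPM in WT. It had 192 and 193 CPM in UAS-otk-1 UAS-wnt-4 against 25.5 and 14.8 CPM in UAS-otk-1. The groups did not overlap, and the rise was 2.89 ± 0.25 (adjusted p = 0.00169). Spn28Da lies 610.5 kb from Wnt4 on chromosome 2L. GILT3, of the family of lysosomal thiol reductases, had 26.9 and 20.7 CPM in UAS-wnt-4 against 2.53 and 2.17 CPM in WT, and 27.2 and 32.9 CPM in UAS-otk-1 UAS-wnt-4 against 3.58 and 2.05 CPM in UAS-otk-1. This rise of 3.39 ± 0.20 was alike in the backgrounds (3.42 ± 0.31 in UAS-otk-1 embryos and 3.35 ± 0.31 without). CG6738 rose by 2.05 ± 0.25, with 8.05 and 5.45 CPM in UAS-wnt-4 against 1.97 and 1.03 CPM in WT. In the otk-1 background it had 7.06 and 6.41 CPM in UAS-otk-1 UAS-wnt-4 against 1.88 and 1.70 CPM in UAS-otk-1. Ugt49B1, a UDP-glycosyltransferase, rose by 1.32 ± 0.20, with 11.2 and 11.9 CPM in UAS-otk-1 UAS-wnt-4 against 3.22 and 3.89 CPM in UAS-otk-1. Without UAS-otk-1 it had 12.3 and 9.9 CPM in UAS-wnt-4 against 6.41 and 5.29 CPM in WT. That smaller change did not pass by edgeR (0.94 ± 0.23, adjusted p = 0.398).

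Neighbouring pseudogenes on chromosome 4 went in opposite directions. CR32011 had 6.58 and 6.15 CPM in UAS-wnt-4 against 0.749 and 0.486 CPM in WT, and 10.1 and 7.33 CPM in UAS-otk-1 UAS-wnt-4 against 0.566 and 1.08 CPM in UAS-otk-1, a rise of 3.39 ± 0.26. CR32010, 0.9 kb away on the same strand, had 1.65 and 2.48 CPM in UAS-wnt-4 against 17.9 and 16.4 CPM in WT, and 0.909 and 1.91 CPM in UAS-otk-1 UAS-wnt-4 against 14.3 and 12.3 CPM in UAS-otk-1, a change of -3.13 ± 0.25. The estimated counts divide reads that fit several genes, so values of near-identical copies are uncertain. LManV and LManIII, lysosomal alpha-mannosidase genes 4.2 kb apart on chromosome 2L, were lower together. LManV had 1.74 and 1.42 CPM in UAS-wnt-4 against 7.66 and 11.9 CPM in WT and 0.557 and 0.727 CPM in UAS-otk-1 UAS-wnt-4 against 5.13 and 8.74 CPM in UAS-otk-1, a change of -2.99 ± 0.30 (adjusted p = 0.00425). LManIII, with a mean of 15.4 counts, changed by -2.78 ± 0.46. Of the 25 genes, 8 (32%) had another of the 25 within 50 kb, against 1.83% of all genes tested that had one of the 25 within that distance.

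Among the other falls, CG3106 had 9.49 and 7.81 CPM in UAS-wnt-4 against 30.3 and 23.6 CPM in WT, and 5.45 and 5.01 CPM in UAS-otk-1 UAS-wnt-4 against 11.5 and 14.6 CPM in UAS-otk-1. It was lower in each background, by -1.47 ± 0.16 (adjusted p = 0.00745). Acbp5, of the acyl-CoA binding proteins, had 2.96 and 1.88 CPM in UAS-wnt-4 against 17.2 and 12.2 CPM in WT, and 1.49 and 2.02 CPM in UAS-otk-1 UAS-wnt-4 against 4.74 and 4.94 CPM in UAS-otk-1. Its change was -2.03 ± 0.29 (adjusted p = 0.0614). Lsp1gamma, a storage protein of the larval fat body, changed by -2.41 ± 0.40 (adjusted p = 0.0982) with at most 0.748 CPM with UAS-wnt-4 and 0.965 to 6.66 CPM without. CG8785 (-1.29 ± 0.21) and CG32564 (-1.19 ± 0.20) passed at the same adjusted p, and neither passed in any fit that left out a library.

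For the remaining genes that fell, 1 of the control groups stood above the other libraries of the 8. CG17145 had 0.658 and 0.151 CPM in UAS-wnt-4 against 52.4 and 53.6 CPM in WT, but 0.0879 and 0.0539 CPM in UAS-otk-1 UAS-wnt-4 against 0.268 and 0.175 CPM in UAS-otk-1. The mucin gene Muc96D had 0.209 and 0.0303 CPM in UAS-wnt-4 against 5.47 and 5.01 CPM in WT, but 0.0879 and 0.108 CPM in UAS-otk-1 UAS-wnt-4 against 0.656 and 0.380 CPM in UAS-otk-1. WT was thus the high group for both genes. Of the 8 libraries, CR43105 and SdicA were at 0 in 6 and were read in WT alone, at 3.05 and 2.32 CPM and at 3.44 and 4.78 CPM. SdicA belongs to a cluster of near-identical sperm dynein genes, so its counts are uncertain. CG9682 had 0.0299 and 0 CPM in UAS-wnt-4 against 3.77 and 1.72 CPM in WT, and 0 in UAS-otk-1 UAS-wnt-4 against 0.209 and 0 CPM in UAS-otk-1. For Ir64a, an olfactory receptor for acids, UAS-otk-1 was the high group, with 0 in UAS-otk-1 UAS-wnt-4 against 3.88 and 2.19 CPM in UAS-otk-1, and it had no more than 0.0278 CPM in the other 4 libraries.

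**Figure D2:**
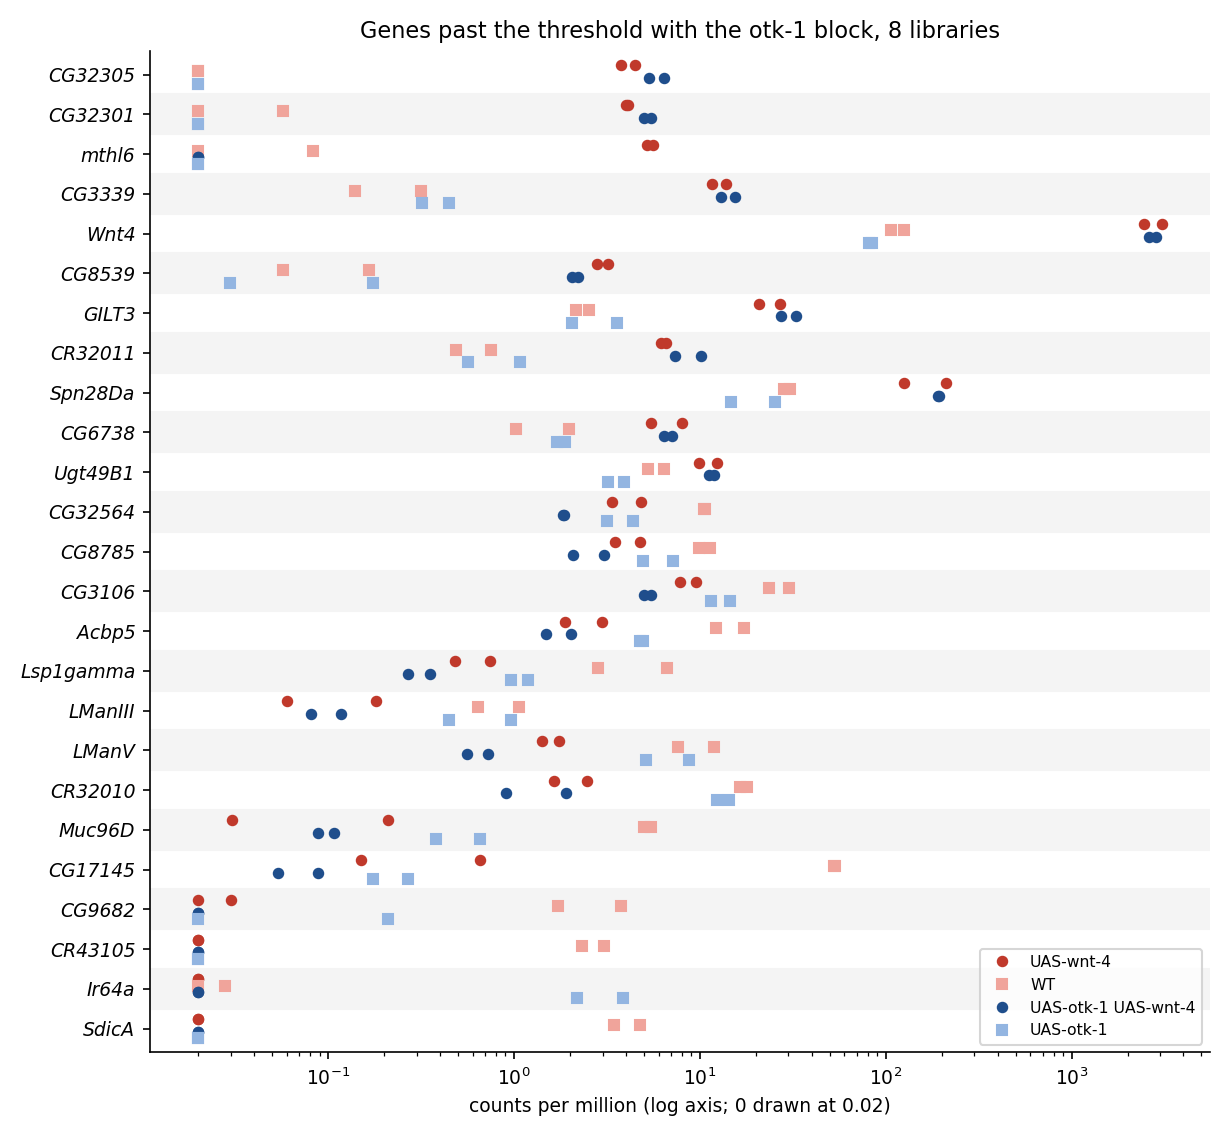
Levels in CPM (log axis, 0 drawn at 0.02) of the 25 genes that passed with the otk-1 block, ordered by change, with circles for libraries with UAS-wnt-4 and squares for those without. In 20 genes the circles and squares of a colour do not overlap in either background, and in CR43105 and SdicA the WT squares alone lie above 0.

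Set in the whole series, the 25 genes fell into unlike patterns. For 6 of them, Wnt4, CG32305, CG32301, CG3339, CG8539 and Spn28Da, the 4 libraries with UAS-wnt-4 lay above the other 16, which held for 0.332% of all genes tested. The choice of the 25 on some of these libraries raises such shares. In the hairpin libraries CG3339 lay at 0.0342 to 0.525 CPM and Spn28Da at 3.81 to 13.9 CPM, below its 14.8 to 30.4 CPM in the 4 matched libraries. Acbp5 was the gene for which the 4 lay below the other 16 (0.197% of all genes). By contrast, GILT3 was at 13.7 to 91.3 CPM and CR32011 at 1.3 to 8.48 CPM in the hairpin libraries, all 12 above the 4 libraries without UAS-wnt-4. CR32010, at 0.548 to 3.16 CPM, was below those 4 in all 12, and CG6738 and Ugt49B1 were above them in 10 of 12 each. LManV (1.54 to 6.94 CPM) and LManIII were below them in 10 of 12 each, CG32564 in 9 and Lsp1gamma and Muc96D in 8. CG8785 was below them in 6, CG3106 and CG17145 in 5 and Acbp5 in 0. CG9682, CR43105, Ir64a and SdicA had a 0 among those 4 and could not lie below them. For 7 of the 14 falls, both WT libraries lay above the other 18 of the series (4.46% of all genes), namely CR32010, Lsp1gamma, CG17145, Muc96D, CG9682, CG32564 and SdicA. CR43105, at 3.05 and 2.32 CPM in WT, ranged from 0 to 5.7 CPM in the hairpin libraries.

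**Figure D3:**
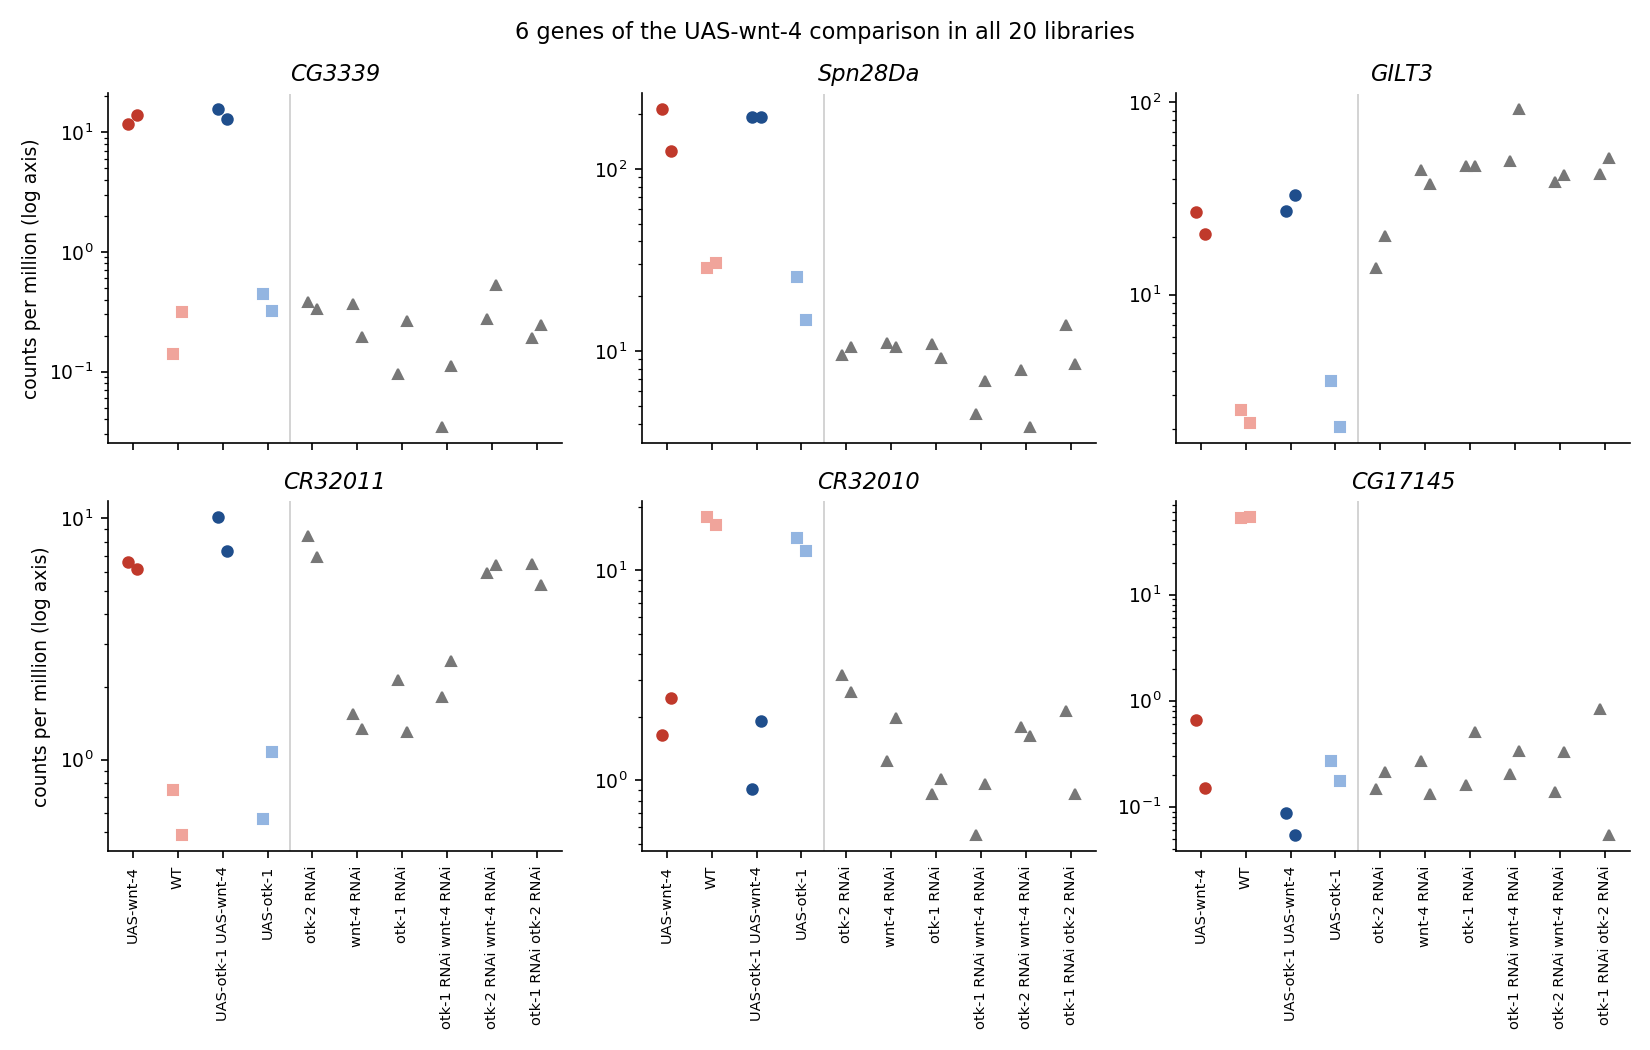
Levels in CPM (log axis) of 6 genes in all 20 libraries, circles for groups with UAS-wnt-4, squares for those without it and triangles for the 12 hairpin libraries. CG3339 and Spn28Da are high in the 4 libraries with UAS-wnt-4 alone, GILT3 and CR32011 are also above the 4 matched libraries in all 12 hairpin libraries, and CG17145 is high in WT (52.4 and 53.6 CPM).

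In UAS-otk-1 embryos alone, UAS-otk-1 UAS-wnt-4 against UAS-otk-1 gave 28 genes past the threshold (0.251%), 19 higher and 9 lower. At an unadjusted p under 0.05, 661 were higher (5.93%) and 270 lower (2.42%), and DESeq2 called 89 higher (0.798%) and 62 lower (0.556%). Of the 28 genes past the threshold, 12 were among the 25 above. Among the others the lowest adjusted p was that of w, which encodes an ABC transporter for eye pigment precursors and is the marker gene of many transgene vectors. It had 92.5 and 111 CPM in UAS-otk-1 UAS-wnt-4 against 18.8 and 20.9 CPM in UAS-otk-1, a rise of 2.36 ± 0.15 (adjusted p = 0.00209). In embryos without UAS-otk-1 it had 80.9 and 72.8 CPM in UAS-wnt-4 against 143 and 134 CPM in WT, and the hairpin libraries had 9.14 to 14.7 CPM. The levels of w thus did not overlap between any of the 4 genotypes. Which transgenes carry the marker was not analysed here.

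Other rises in this background were cry, the blue light receptor cryptochrome, with 6.10 and 4.71 CPM in UAS-otk-1 UAS-wnt-4 against 0.447 and 0.731 CPM in UAS-otk-1 (3.19 ± 0.42, adjusted p = 0.0424), and Cyp12c1, a cytochrome P450, with 7.68 and 8.94 CPM against 1.04 and 1.40 CPM (2.77 ± 0.41). BobA, a Bearded family gene of the Notch pathway, had 102 and 135 CPM in UAS-otk-1 UAS-wnt-4 against 46.1 and 27.9 CPM in UAS-otk-1 (1.69 ± 0.27, adjusted p = 0.0973). The juvenile hormone synthesis gene jhamt (1.45 ± 0.22) and the mucin gene Muc30E (1.25 ± 0.15) rose as well, and lncRNA:CR34335 rose by 3.09 ± 0.42. For jhamt, Muc30E and lncRNA:CR34335, UAS-otk-1 was the low group of those compared. It had 4.98 and 5.21 CPM of jhamt against 12.5 and 9.7 CPM in WT, and 54 and 52.8 CPM of Muc30E against 98.8 and 90.4 CPM. For lncRNA:CR34335 it had 0.477 and 0.263 CPM against 4.86 and 4.18 CPM in WT. For these 6 genes the change in embryos without UAS-otk-1 did not pass and lay between -0.66 ± 0.40 for Cyp12c1 and 0.17 ± 0.26 for BobA.

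The falls were led by CG12896, with Prx12896 among its older names, which had 0.791 and 0.296 CPM in UAS-otk-1 UAS-wnt-4 against 12.3 and 10.9 CPM in UAS-otk-1 (-4.42 ± 0.42, adjusted p = 0.0104). CG5687, an SLC5 family transporter by its older name, had 0.967 and 0.916 CPM against 6.98 and 7.34 CPM in these groups (-2.92 ± 0.29). ClC-a, a chloride channel, had 3.25 and 2.67 CPM in UAS-otk-1 UAS-wnt-4 against 19.0 and 20.6 CPM in UAS-otk-1 (-2.74 ± 0.28). The tachykinin receptor TkR99D (-2.54 ± 0.35), the kainate receptor subunit Grik (-3.81 ± 0.53) and CG15128 (-2.94 ± 0.38) also fell. For CG5687, ClC-a, TkR99D and Grik, UAS-otk-1 was the high group of the 4, with Grik at 0.293 and 0.162 CPM in UAS-otk-1 UAS-wnt-4 against 3.22 and 3.22 CPM in UAS-otk-1. CG12896 was instead also high in UAS-wnt-4, at 15.3 and 14.5 CPM.

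This count turned on single libraries. It was 13 and 7 without UAS-otk-1 replicate 1 or 2, 5 and 11 without UAS-otk-1 UAS-wnt-4 replicate 1 or 2, and 50 and 46 without WT replicate 1 or 2, which enter only through the shared spread. The genes that passed in all 8 such fits were 4, namely Wnt4, w, GILT3 and CG3339. When the 4 libraries were fitted without the others, 459 genes were higher (4.12%) and 537 lower (4.81%), with a common dispersion of 0.0186 against 0.0444 for the block fit of 8 libraries and 2 residual degrees of freedom. All 28 genes passed there, as did otk2 (0.65, adjusted p = 0.0339) and otk (-0.47, adjusted p = 0.0533).

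In that fit of 4 libraries several lists held genes past the threshold, to be read beside 4.12% of all genes higher and 4.81% lower. Of 89 cytosolic ribosomal protein genes 17 were higher and 0 lower, and of 24 septate junction genes, which seal epithelia, 5 were higher (sinu, nrv2, cold, kune and M6, by 0.38 to 0.60) and 0 lower. Of 31 maternal axis and germ plasm genes 10 were lower, among them bcd (-0.78), smg (-0.61), piwi (-0.62) and osk (-0.51), and 2 were higher (pip and tsl). Of 22 mitotic cell cycle genes 7 were lower, among them CycB, CycB3 and twe, and 1 was higher (dap). Of 66 cuticle protein genes 7 were lower and 2 higher. The stage score was -3.02 and -3.24 in UAS-otk-1 UAS-wnt-4 against -3.62 and -3.03 in UAS-otk-1, and its early genes were lower in 6 of 22. These genes were named after their values were seen, and in the edgeR fit of 8 libraries 0 genes of these 5 lists passed. At an unadjusted p under 0.05 that fit had 26 ribosomal, 7 septate junction, 2 maternal, 1 mitotic and 3 cuticle genes higher. It had 16 cuticle genes and none of the other 4 lists lower. The shares of all genes were 5.93% higher and 2.42% lower. DESeq2 called 1 ribosomal and 1 cuticle gene higher and 5 cuticle genes lower, beside 0.798% and 0.556% of all genes.

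The backgrounds share no library and can be set side by side. Differences that come with the UAS-wnt-4 stock, other than Wnt4, could recur in both and were not tested. UAS-wnt-4 against WT gave 28 genes (0.251%), 13 higher and 15 lower, and 11 genes passed in both backgrounds, 39.3% of each list. For 10 of the 11 the direction was the same, namely Wnt4, CG32305, CG32301, CG3339, CG8539, GILT3, CR32011, Spn28Da, LManV and CR32010. The exception was p24-2. Over all 11154 genes the changes had the same sign in 55% and correlated with Pearson's r = 0.21 and Spearman's rho = 0.13, across genes, which are not independent replicates. The count without UAS-otk-1 rose to 62 without WT replicate 2 and ranged from 19 to 41 without each other library.

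The difference between the backgrounds was tested directly and passed for 9 genes (0.0807%). At an unadjusted p under 0.05 there were 454 of 11154 genes, below the 5% that such a cut gives where nothing differs. For w the change in UAS-otk-1 embryos exceeded that without UAS-otk-1 by 3.19 ± 0.21 (adjusted p = 0.00469). For CG12896 it was lower by -6.36 ± 0.55 (adjusted p = 0.0133), since the gene had 15.3 and 14.5 CPM in UAS-wnt-4 against 3.16 and 4.66 CPM in WT. Overlapping genes on chromosome 3R, p24-2 of the p24 cargo receptors and Unc-115b of the actin-binding proteins, moved as a pair. p24-2 had 59.1 and 42.4 CPM in UAS-otk-1 UAS-wnt-4 against 10 and 10.5 CPM in UAS-otk-1, but 14.8 and 12.7 CPM in UAS-wnt-4 against 63.0 and 38.3 CPM in WT, a difference of 4.18 ± 0.38. Unc-115b had 64.3 and 49.3 CPM in UAS-otk-1 UAS-wnt-4 against 20.2 and 23.7 CPM in UAS-otk-1, and 15.8 and 11.9 CPM in UAS-wnt-4 against 73.9 and 50.7 CPM in WT (3.53 ± 0.35). High and low genotypes were thus the same for both, and reads of the overlap cannot be assigned to either gene. For Ada1-1 of the SAGA complex, the change in UAS-otk-1 embryos minus that without UAS-otk-1 was 6.31 ± 0.58. It had 1.06 and 0.754 CPM in UAS-otk-1 UAS-wnt-4 against 0.298 and 0.351 CPM in UAS-otk-1, and 0.269 and 0.151 CPM in UAS-wnt-4 against 5.63 and 6.75 CPM in WT, so that WT was the high group and the gene passed without UAS-otk-1 (-4.84, adjusted p = 0.00923) and not in UAS-otk-1 embryos (1.47, adjusted p = 0.465). The difference was also positive for Cyp9f3 (3.24 ± 0.42) and Muc30E (1.63 ± 0.21), each with a positive change in UAS-otk-1 embryos and a negative one without UAS-otk-1. It was negative for CG13465 (-3.12 ± 0.40), which had 25.7 and 35.6 CPM in UAS-otk-1 UAS-wnt-4 against 63.3 and 34.9 CPM in UAS-otk-1, and 82.4 and 87.2 CPM in UAS-wnt-4 against 14.9 and 16.5 CPM in WT, and for Sdic3. Without UAS-otk-1 replicate 1, 0 genes passed by edgeR (389 at an unadjusted p under 0.05), and without replicate 2 of that group 2 passed. The count was 2 and 5 without UAS-otk-1 UAS-wnt-4 replicate 1 or 2, 5 without UAS-wnt-4 replicate 2 and 14 without either WT library, while DESeq2 gave 63 on all 8.

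**Figure D4:**
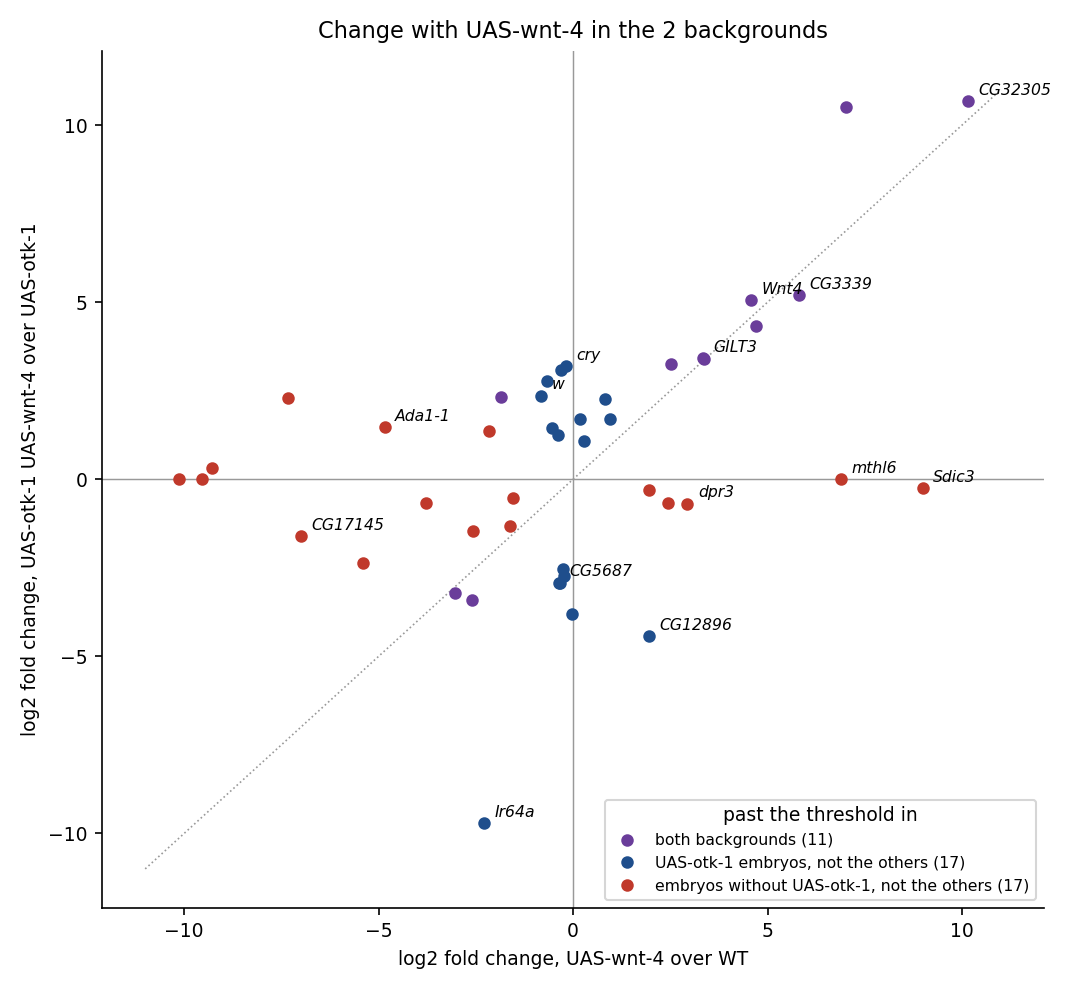
Log2 fold change of UAS-otk-1 UAS-wnt-4 over UAS-otk-1 (y axis) against that of UAS-wnt-4 over WT (x axis) for the genes past the threshold in either, with equal change on the dotted line. Of the 11 genes past it in both (purple), 10 changed the same way and p24-2, the unlabelled point at -1.86 and 2.31, did not, and genes such as CG5687 and dpr3 lie near an axis.

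Genes of the Wnt pathway other than Wnt4 did not pass with the otk-1 block or in UAS-otk-1 embryos in the main edgeR fits. Some did by DESeq2 or with the stage score as a covariate on the same 8 libraries, and in the fit of 4 libraries. In the main fits, 2 of 38 gene lists held a gene that passed with the otk-1 block, Wnt4 among the ligands and Lsp1gamma among amnioserosa and fat body genes. In UAS-otk-1 embryos 3 did, with Wnt4, BobA and w. Of 7 Wnt ligands tested, the other 6 changed by -0.17 (wg) to 0.16 (Wnt10). The 12 receptors and co-receptors had a median of 0.00, with 0 past the threshold, 1 higher and 1 lower at an unadjusted p under 0.05 (otk2 and otk) and 0 by DESeq2. Of all genes, 5.06% were higher and 3.48% lower at that unadjusted p. In UAS-otk-1 embryos DESeq2 called 1 of the 12 higher and 1 lower, beside 0.798% and 0.556% of all genes. With the stage score as a covariate to the block, otk2 (0.51, adjusted p = 0.0542 by edgeR) and Ror, a receptor tyrosine kinase (0.46, adjusted p = 0.055), were higher. Among them fz changed by 0.12 ± 0.10, fz2 by -0.06 ± 0.07 and arr, the LDL receptor related co-receptor, by -0.08 ± 0.11. Of the 18 intracellular genes of the canonical pathway 3 were above 0 and 15 below, with a median of -0.09 beside 0.01 for all genes tested, 0 past the threshold, 1 lower at an unadjusted p under 0.05 and 0 by DESeq2. Among them dsh, the Dishevelled scaffold, was at -0.15 ± 0.16. With the stage score as a covariate 5 of the 18 were lower (Axn, Apc2, lgs, pygo and nej, by -0.26 to -0.51). Of all genes, 7.88% were higher and 8.01% lower in that fit. The count over all genes in that fit, 1772, was 25 to 3454 when a library was left out.

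Target and patterning genes of the embryo did not pass with the block either. The segment polarity gene en, a target of wg, had 54.6 and 76.1 CPM in UAS-wnt-4 against 40.7 and 77.3 CPM in WT, and 56.1 and 64 CPM in UAS-otk-1 UAS-wnt-4 against 54.1 and 53.6 CPM in UAS-otk-1, with a change of 0.16 ± 0.19. The groups without UAS-otk-1 overlapped. wg had 40.2 and 51.2 CPM in UAS-wnt-4 against 38.3 and 63.7 CPM in WT, and 42.1 and 44 CPM in UAS-otk-1 UAS-wnt-4 against 48.7 and 50.2 CPM in UAS-otk-1 (-0.17 ± 0.16). The 20 wg target and segment polarity genes had a median of 0.03, with 0 past the threshold, 0 at an unadjusted p under 0.05 and 0 by DESeq2, and the 11 planar cell polarity genes a median of -0.02 with the same counts. The FGF ligand ths (0.10 ± 0.09), Egfr (-0.12 ± 0.12) and the dorsal protease ea (-0.25 ± 0.25) did not pass with the block, nor did the septate junction and polarity genes mesh (-0.05 ± 0.18), Gli (0.04 ± 0.09), cora (0.05 ± 0.14), Fas3 (0.13 ± 0.12), dlg1 (-0.05 ± 0.08) and l(2)gl (-0.06 ± 0.07). With the stage score as a covariate ea (-0.52, adjusted p = 0.0603 by edgeR) and Fas3 (0.26, adjusted p = 0.0638) did pass. So did ptc of the segment polarity genes (-0.32) and 11 of the 24 septate junction genes, 10 higher and 1 lower. These counts stand beside 7.88% of all genes higher and 8.01% lower in that fit.

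The lists with the lowest medians with the otk-1 block were the larval gut enzymes and the cuticle proteins. The 20 larval gut enzyme genes had a median of -2.71, 3 above 0, with 0 past the threshold, 12 lower at an unadjusted p under 0.05 (3.48% of all genes) and 6 lower by DESeq2 (1.14% of all genes). With the stage score as a covariate 11 of the 20 were lower and 0 higher (8.01% and 7.88% of all genes). Their summed level was 77.9 and 34.1 CPM in UAS-wnt-4 against 351 and 314 CPM in WT, but 28.4 and 35 CPM in UAS-otk-1 UAS-wnt-4 against 41.6 and 31.1 CPM in UAS-otk-1, so that WT was the high group. Jon99Cii, a digestive protease, had 2.12 and 0.0303 CPM in UAS-wnt-4 against 38.9 and 57.1 CPM in WT. The Jonah proteases are close copies and their values are uncertain. The 66 cuticle protein genes had a median of -0.55, and 21.2% were above 0 beside 52.7% of all genes. Of them 0 were past the threshold, 22 were lower at an unadjusted p under 0.05 and 9 lower by DESeq2, and 10 were lower once the stage score was added, shares to be read beside those of all genes just given. Their sum was 1300 and 1190 CPM in UAS-wnt-4 against 1920 and 1770 CPM in WT, and 608 and 566 CPM in UAS-otk-1 UAS-wnt-4 against 677 and 1290 CPM in UAS-otk-1. The stage score was -2.01 and -3.07 in UAS-wnt-4 against -0.60 and -2.07 in WT, which overlap. Most of its late genes are cuticle proteins, so it is not independent of that list.

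Of 89 ribosomal protein genes 0 passed by edgeR with the block and 0 by DESeq2. Their median was 0.15 beside 0.01 for all genes, 79 (88.8%) were above 0 beside 52.7% of all genes, and 27 were higher and 0 lower at an unadjusted p under 0.05, beside 5.06% and 3.48% of all genes. With the stage score as a covariate 28 were higher and 0 lower, beside 7.88% and 8.01% of all genes. Their summed level was 145000 and 137000 CPM in UAS-wnt-4 against 135000 and 130000 CPM in WT, and 138000 and 149000 CPM in UAS-otk-1 UAS-wnt-4 against 128000 and 120000 CPM in UAS-otk-1. These sums did not overlap in either background.

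**Figure D5:**
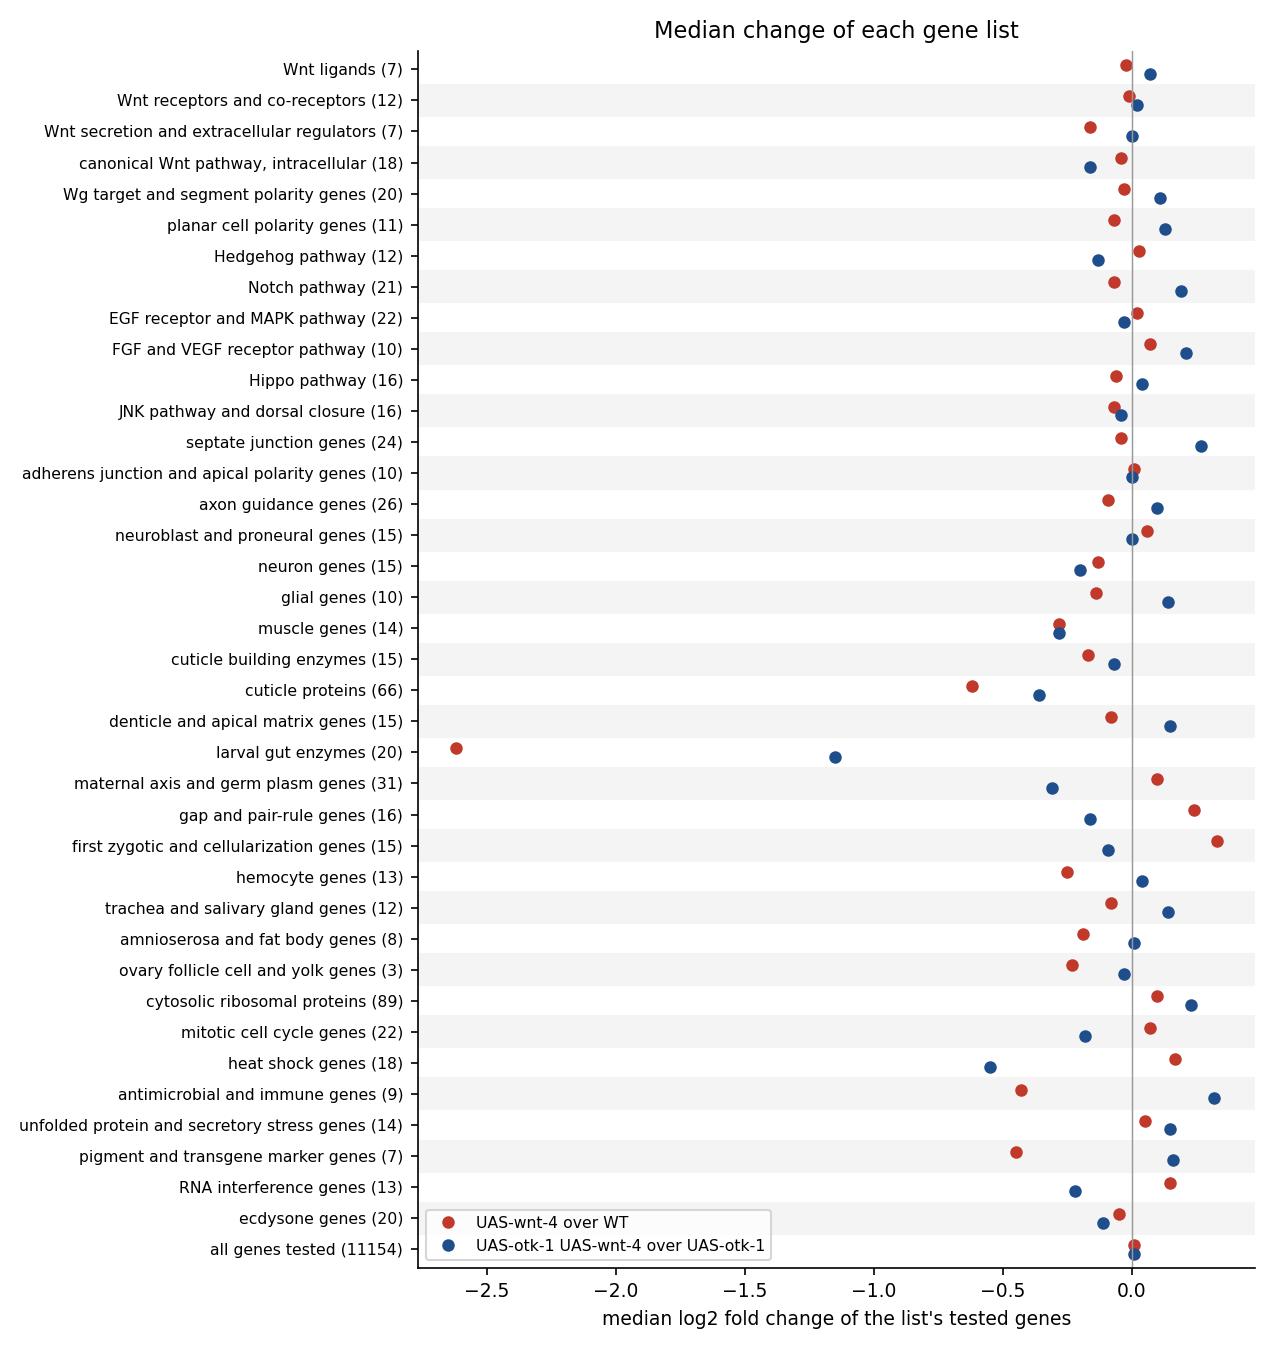
Median log2 fold change of the tested genes of each list (number in brackets) for UAS-wnt-4 over WT (red) and UAS-otk-1 UAS-wnt-4 over UAS-otk-1 (blue). Most medians lie near 0, and the larval gut enzymes stand lowest (-2.62 and -1.15). Several lists differ in sign, such as the heat shock genes (0.17 and -0.55) and the antimicrobial and immune genes (-0.43 and 0.32).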

How the data were processed

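As deposited, each library has an expected count and a TPM per gene. The submitters' processing notes name STAR 2.7.1a, RSEM 1.3.1 and the dm6 build as what the authors used for them (deposited FPKM values were not used). Expected counts were rounded (11.6% were not whole). Of 17714 genes, 426 of types the study removed were left out (mitochondrial, rRNA, snoRNA and snRNA genes, 5.98 to 10.41% of counts), and 11154 with a mean of at least 10 counts over 20 libraries were tested with edgeR 4.0.16 (TMM, quasi-likelihood, Benjamini-Hochberg, threshold 10%) on R 4.3.3. At this depth the spread between libraries, not counting noise, limited all but low genes. The block fit had terms for UAS-otk-1 and UAS-wnt-4. A second fit had a mean per group and gave the change in each background and their difference. Named genes were those of the Wnt pathway and the study's own genes, and up to 15 rises and falls (10 in UAS-otk-1 embryos, 5 for the difference) past the threshold with at least 50 counts and libraries that did not overlap. Others that passed were named after their values were seen. The members and lists were chosen with earlier results of these data known. The block fit, by edgeR and DESeq2, was tried on simulated counts that held no differences in stage or heat shock genes. The other contrasts were not checked in this way. Gene positions are those of the Ensembl annotation. Alternatives were DESeq2 1.42.0, RLE scaling, no filter, a 5% threshold, replicate block, other sets of libraries, no otk-1 block, a stage score covariate and leaving out each library.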

Additional observations from a re-analysis of the deposited data

Results flagged for a closer look

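For 9 genes the change with UAS-wnt-4 differed between UAS-otk-1 embryos and embryos without UAS-otk-1 by the test of the difference itself. On the log2 scale, the first change minus the second was 3.19 for w, 4.18 for p24-2, 3.53 for Unc-115b, 6.31 for Ada1-1, 3.24 for Cyp9f3 and 1.63 for Muc30E, and it was -6.36 for CG12896, -3.12 for CG13465 and -9.22 for Sdic3. Sdic3 was at 0 in both WT libraries, so its value depends on how the fit treats a 0 and is no estimate of size, and it is a near-identical copy of other Sdic genes. None of the 9 passed in every fit that left out a library, and w passed in 7 of 8.

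In the hairpin libraries, which entered the fits in 1 alternative alone, 2 genes that rose with UAS-wnt-4 were also above both WT libraries. The lowest of the 12 had 13.7 CPM of GILT3 against 2.53 and 2.17 CPM in WT, and 1.3 CPM of CR32011 against 0.749 and 0.486 CPM in WT.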

How the results depend on the processing

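For the block comparison (25 genes), RLE scaling, no filter and a mean per group stayed within 1.5 times, though a mean per group kept 17 of the 25 genes. The count was 194 by DESeq2 (67 higher, 127 lower), 13 at 5% (9 and 4), 88 with all 20 libraries (44 and 44), 11 without the otk-1 block (9 and 2) and 1772 when the stage score was a covariate (879 and 893). DESeq2 and the fit of all 20 libraries each kept 20 of the 25 (LManIII had no adjusted p by DESeq2), and both lost mthl6, CR43105, SdicA and Ir64a. All 25 were among the 1772, but that count itself was 25 to 3454 when a library was left out (chosen after seeing the data) and 1680 with a score without cuticle proteins. Leaving out a library gave 12 to 30 genes. In UAS-otk-1 embryos (28 genes) the count was 151 by DESeq2 (89 and 62), 80 with all 20 libraries (56 and 24), 266 given the stage score (132 and 134), 996 with only the 4 libraries compared (459 and 537) and 5 to 50 with a library left out. Without UAS-otk-1 (28 genes) it was 101 by DESeq2, 68 with all 20 libraries and 19 to 62 with a library left out, and for the difference (9 genes) 63, 27 and 0 to 14. With the replicate block, counts were 20, 38, 44 and 10 in the order of these 4 comparisons. Nothing in the labels says that the numbers pair samples. Differences of replicate 1 from replicate 2 correlated by 0.59 between UAS-wnt-4 and WT and by -0.08 to 0.15 between the other groups. The second libraries of UAS-wnt-4, WT and UAS-otk-1 are all high in Hsp70 genes. UAS-otk-1 correlated by 0.15 with UAS-wnt-4 and by 0.01 with WT. A pairing of UAS-wnt-4 with WT is possible and was not settled. Of the genes that passed with the block or in UAS-otk-1 embryos, none reversed under an alternative. The cause of these moves was not tested. Low genes, with 50 counts or fewer on average, and 2 libraries per group limit what could be seen.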

Other observations

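Without UAS-otk-1, further genes passed in UAS-wnt-4 against WT and not in UAS-otk-1 embryos, a contrast that the test of the difference did not call for the genes that follow. Of the digestive genes, the trypsin deltaTry had 1.26 and 0.605 CPM in UAS-wnt-4 against 11.6 and 14.5 CPM in WT (-3.79, adjusted p = 0.0238). The alkaline phosphatases Alp7 and Alp8 had at most 0.0299 CPM in UAS-wnt-4 against 2.05 to 3.18 CPM in WT. These genes were at 0.322 CPM or less in all 4 libraries with UAS-otk-1. VepD had 3.80 and 3.39 CPM in UAS-wnt-4 against 10.2 and 11 CPM in WT (-1.54, adjusted p = 0.0541). Higher in UAS-wnt-4 were dpr3, of the defective proboscis extension response family of cell surface proteins (4.94 and 5.15 against 0.583 and 0.744 CPM in WT), and CG13699 (43.5 and 43.3 against 14.3 and 8.21 CPM in WT). Both were high in UAS-wnt-4 alone of the 8 libraries, and in the hairpin libraries dpr3 was at 0.110 to 0.609 CPM and CG13699 at 1.25 to 9.99 CPM.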
